A study of Mus musculus with 12 samples.

Results

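The interleukin-1 ligands Il1a and Il1b, their antagonists Il1rn and Il1r2, and the cytokine genes Il6, Il10, Il12a, Il12b, Tnf, and Osm were described in cultured mouse myeloid-derived suppressor cells (MDSCs). The 10 genes were taken by symbol from a table of 35303 gene symbols, in which all 10 were found. All cells were wild type and were grown from the bone marrow of female C57BL/6 mice aged 6 to 10 weeks, for 3 days with IL-6 and GM-CSF at 40 ng/ml each, followed by isolation of CD11b+Gr1+ cells. The 3 groups, with 4 libraries each, were unmodified MDSCs (MDSC), MDSCs carrying blank poly(lactide-co-glycolide) nanoparticles on their surface (MDSC-NP-Blk), and MDSCs carrying the same type of nanoparticle loaded with rapamycin (CITED). Rapamycin is an inhibitor of the kinase mTOR. Nanoparticles were attached by click chemistry to an azido sugar that the cells had taken up in culture, and whether the unmodified MDSCs also received the sugar is not given in the sources used here. A further culture of 24 hours at 40 ng/ml of IL-6 followed in all groups, so that IL-6 protein had been added to every culture, the controls included. The sample labels name the CNS as the tissue, whereas the methods describe these bone marrow cultures. The labels call the libraries biological replicates and do not say whether they came from separate cultures, so that p-values measure the spread between these libraries.

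MDSCs are immature monocytic and granulocytic cells that restrain T cells. IL-1α and IL-1β signal through the same receptor, IL-1R1. The receptor antagonist encoded by Il1rn occupies that receptor without signaling, and the decoy receptor encoded by Il1r2 binds IL-1 but lacks a signaling domain. TNF, IL-6, and oncostatin M are secreted by activated myeloid cells, IL-12 is a heterodimer of the subunits encoded by Il12a and Il12b, and IL-10 restrains the production of most of the others. Transcription of many of these genes is driven by NF-kB with AP-1 and C/EBP factors, and the mRNAs are often short-lived because proteins such as tristetraprolin, encoded by Zfp36, bind AU-rich sequences in their 3′ untranslated regions (UTRs).

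Library depth was 20604809 to 37855478 counts, and 17676 symbols were tested, those with a sum of 2 or more counts. The normalized counts given below are counts divided by library size and a TMM factor, a scaling that assumes most genes to be unchanged, and multiplied by the mean library scale of 24654141. Of the symbols tested, 10556 had a mean normalized count above 50. Shares of all genes given below thus include many symbols with few counts, which pass the test less readily. The TMM factors were 1.12 to 1.15 in MDSC libraries, 0.938 to 0.947 in MDSC-NP-Blk libraries, and 0.921 to 0.944 in CITED libraries. Without them, the median log2 fold change of all genes shifted by −0.27 in CITED and by −0.26 in MDSC-NP-Blk against MDSC, and all fold changes below are relative to the TMM scaling. Mitochondrially encoded genes took 1.877 to 2.127% of the counts in MDSC libraries, 1.5 to 1.676% in MDSC-NP-Blk libraries, and 1.397 to 1.529% in CITED libraries, so that both nanoparticle groups lay below MDSC, as the members described below lay above it, and the part of this share in their differences was not tested. The markers used to isolate the cells were present in all groups, with mean normalized counts of Itgam, which encodes CD11b, between 51965 and 70031 and of Ly6g, which encodes part of the Gr1 antigen, between 3934 and 4615.

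The positions of the 10 genes were read from GENCODE release M39 on GRCm39. Il1a lies on chromosome 2 from 129140291 to 129152098 and Il1b on chromosome 2 from 129206490 to 129213059, both on the minus strand, and Il1rn lies on chromosome 2 from 24226865 to 24241506 on the plus strand. Il1r2 lies on chromosome 1 from 40113239 to 40164391 and Il10 on chromosome 1 from 130947581 to 130952711. Il6 lies on chromosome 5 from 30218112 to 30224979, Il12a on chromosome 3 from 68597977 to 68605880, Il12b on chromosome 11 from 44290808 to 44305505, and Osm on chromosome 11 from 4186420 to 4191026. Tnf lies on chromosome 17 from 35418357 to 35420983, on the minus strand. Exons of Il1a, Il1b, and Il12a are overlapped on the opposite strand by Gm14023, Il1bos, and Gm66274. Whether the counting used strand is not given in the sources used here, so that reads of these genes and of their antisense partners could not be told apart.

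To show which sequences the members share beyond their names, the 3′ UTR of the canonical transcript was searched on the sense strand for the AU-rich pentamer ATTTA, with overlapping matches counted. All 8 cytokine genes held at least 4 pentamers, with 8 in Tnf, 6 each in Il6, Il10, Il12a, Il12b, and Osm, 5 in Il1a, and 4 in Il1b, whereas 30.5% of the 20842 3′ UTRs searched held 4 or more. The longer element of 9 bases, the pentamer with TT on either side, occurred 5 times in Tnf and once in Il12a, was at 0 in the other 6 cytokine genes, and was held by 8.33% of all 3′ UTRs. Il1rn held 0 in a 3′ UTR of 1864 bases, and 67.4% of all 3′ UTRs held at least 1. The annotated 3′ UTR of the canonical Il1r2 transcript is 24 bases long and held 0, so that the search covered few bases of this gene. The windows of 30 bases with the most pentamers are shown for the cytokine genes whose RNA was detected well above the floor, with the pentamers in capitals, as DNA of the sense strand from 5′ to 3′ on GRCm39. They lie at chr2:129142019-129142048 (minus strand) for Il1a, chr2:129206718-129206747 (minus strand) for Il1b, chr17:35418655-35418684 (minus strand) for Tnf, chr11:4190948-4190977 for Osm, chr5:30224686-30224715 for Il6, and chr3:68605768-68605797 for Il12a.
Il1a: tgtATTTAtaaatatATTTAtgataattat
Il1b: cctATTTATTTAtgtATTTAttgattggtt
Tnf: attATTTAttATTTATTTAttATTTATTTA
Osm: tatATTTAtaaggcctATTTAtaatgtata
Il6: ttaATTTAttgataATTTAaataagtaaac
Il12a: cctATTTAtATTTATTTAttttctATTTAt

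The 250 bases upstream of the canonical transcription start were searched on both strands for the motifs of NF-kB (GGGANTTTC), AP-1 (TGANTCA), and C/EBP (TTGCNNAA) and for TATAAA. Among 21747 promoters of this length, 1.08% held the NF-kB motif, 6.18% the AP-1 motif, 9.34% the C/EBP motif, and 11.9% TATAAA. Il6 was the member with matches to all of the first 3, and its NF-kB, C/EBP, and AP-1 matches began 44, 128, and 249 bases upstream of the start. Il1rn and Il12a each held an AP-1 match, at 134 and 216 bases, and Il1b, Il10, and Tnf each held TATAAA, at 31, 29, and 29 bases. The promoters of Il1a, Il1r2, Il12b, and Osm held none of these letters in this window. Sites that deviate from these letters were not counted, so that a promoter without a match may still hold one. The promoters of Il6, of the ligand Il1b, and of its antagonist Il1rn are given because these genes span low, intermediate, and high levels among the members that were higher with nanoparticles. They run 5′ to 3′ toward the start, with matches in capitals, and lie at chr5:30217862-30218111 (plus strand), chr2:129213060-129213309 (minus strand), and chr2:24226615-24226864 (plus strand).
Il6: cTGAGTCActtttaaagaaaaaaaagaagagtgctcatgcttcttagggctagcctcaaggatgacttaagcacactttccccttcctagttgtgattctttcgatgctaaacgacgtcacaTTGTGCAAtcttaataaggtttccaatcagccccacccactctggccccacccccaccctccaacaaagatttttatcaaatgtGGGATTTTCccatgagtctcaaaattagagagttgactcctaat
Il1b: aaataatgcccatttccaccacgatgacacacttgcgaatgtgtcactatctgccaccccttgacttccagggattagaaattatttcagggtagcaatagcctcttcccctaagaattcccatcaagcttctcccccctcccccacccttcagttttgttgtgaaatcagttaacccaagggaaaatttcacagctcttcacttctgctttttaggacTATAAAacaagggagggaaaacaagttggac
Il1rn: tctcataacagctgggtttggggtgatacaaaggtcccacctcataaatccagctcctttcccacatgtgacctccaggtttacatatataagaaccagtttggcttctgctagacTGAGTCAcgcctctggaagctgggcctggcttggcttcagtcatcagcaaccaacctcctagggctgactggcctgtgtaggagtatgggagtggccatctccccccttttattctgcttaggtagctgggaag

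The 10 transcripts differed widely in level. Levels were compared between genes as CPM per kilobase of canonical transcript. CPM are counts scaled to the library size multiplied by its TMM factor. On this scale, the antagonists were highest in every group. In MDSC, Il1r2 reached 459 ± 17.5 and Il1rn 294 ± 12.6, followed by Il1b at 63.8 ± 4.06, Tnf at 30.7 ± 1.85, Osm at 16.6 ± 1.64, and Il1a at 9.75 ± 0.438 CPM per kb (SD, n = 4). Il12a at 2.07 ± 0.520 and Il6 at 2.01 ± 0.563 CPM per kb did not differ beyond their spread in this group. The order from Il1b to Il1a was kept in the other groups. In MDSC-NP-Blk, Il1r2 was at 744 ± 60.8 and Il1rn at 593 ± 81.2 CPM per kb, and their libraries overlapped, whereas in CITED, Il1rn was at 728 ± 36.5 and Il1r2 at 611 ± 22.3 CPM per kb without overlap. Il6 and Il12a were at 6.45 ± 0.682 and 5.13 ± 0.549 CPM per kb in MDSC-NP-Blk and at 8.27 ± 0.664 and 8.46 ± 0.768 CPM per kb in CITED. Levels per kilobase rest on 1 annotated transcript for each gene, and 9 transcripts are annotated for Il1r2 and 7 for Il1rn.

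Il10 and Il12b were at or near the detection floor, taken as 3 counts in a library, which covers counting error only. Il10 had 0 counts in 11 of 12 libraries, which allows a share of up to 1.08e-05% to 1.46e-05% of a library in these 11 depending on depth, and 6 counts in MDSC-NP-Blk replicate 2, the deepest library. Il12b had 10, 0, 8, and 9 counts in MDSC libraries, 6, 0, 0, and 0 in MDSC-NP-Blk libraries, and 3, 7, 6, and 2 in CITED libraries. Neither gene passed the test in any comparison, and differences between groups were not detectable at this depth. The Il12b result rested on 1 library: without MDSC-NP-Blk replicate 1, the only one of its group with Il12b counts, the adjusted p from edgeR became 0.0095 against MDSC and 0.022 for CITED relative to MDSC-NP-Blk, and over all alternatives it ranged from 0.0095 to 0.45 and from 0.022 to 0.63. Il6 and Il12a were low but measurable, with 39 to 289 and 45 to 329 raw counts in a library. The other 6 members had at least 840 counts in every library.

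**Figure D1:**
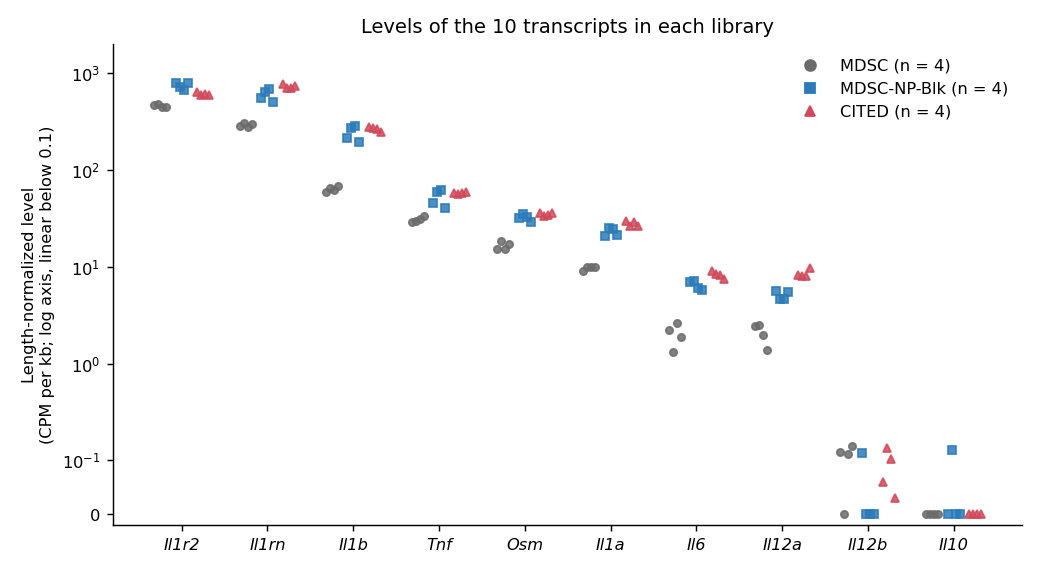
Length-normalized levels (CPM per kb, log axis that is linear below 0.1) of the 10 transcripts in each of the 12 libraries, ordered by mean level, with 1 point per library. Il1r2 and Il1rn lie highest in every group, Il6 and Il12a lie at about 2 CPM per kb in MDSC, and Il12b and Il10 lie at or near 0.

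The first comparison asked how the cytokine genes of CITED differed from those of unmodified MDSCs. Of the 10 members, 8 were higher in CITED at an adjusted p-value below 0.05 (edgeR's quasi-likelihood test, Benjamini-Hochberg over all genes tested), against 22.2% of all genes tested, and 0 were lower, against 22.2%. For 6 of them, namely Il1a, Il1b, Il1rn, Il6, Il12a, and Osm, the log2 fold change was also at least 1, the thresholds at which a gene is termed up-regulated here, and 3.28% of all genes were up-regulated. In the 8 genes all CITED libraries were above all MDSC libraries, as in 21.2% of all genes. The median log2 fold change was 1.20 over the members and −0.05 over all genes. The second comparison set MDSC-NP-Blk against the same MDSC libraries and thus addressed the blank nanoparticle, together with any step of its attachment that the controls did not undergo. The same 8 members were higher (19.9% of all genes), 0 were lower (18.6%), and 8 did not overlap between groups (18.1%). Of these, 5 were up-regulated (1.88% of all genes), and the median log2 fold change was 1.13 over the members and −0.03 over all genes.

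The ligand Il1b had normalized counts of 1998, 2170, 2056, and 2305 in MDSC libraries, 7179, 9144, 9561, and 6457 in MDSC-NP-Blk libraries, and 9240, 9013, 8806, and 8308 in CITED libraries. The lowest library with nanoparticles, at 6457, was above the highest MDSC library, at 2305, and the libraries of the nanoparticle groups overlapped. The log2 fold change against MDSC was 2.05 in CITED (SE, the standard error, 0.0801, adjusted p = 6.8e-21) and 1.92 in MDSC-NP-Blk (SE 0.0798, adjusted p = 1.3e-19), the largest in MDSC-NP-Blk among the 8 members above the floor. Il1a had normalized counts of 768, 845, 829, and 845 in MDSC libraries, 1758, 2139, 2092, and 1781 in MDSC-NP-Blk libraries, and 2475, 2216, 2427, and 2211 in CITED libraries. The 3 groups did not overlap, in the order MDSC, MDSC-NP-Blk, CITED. Against MDSC, the log2 fold change of Il1a was 1.51 in CITED (SE 0.0697, adjusted p = 5.1e-19) and 1.24 in MDSC-NP-Blk (SE 0.0695, adjusted p = 2.7e-16).

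The receptor antagonist gene Il1rn had normalized counts of 17464, 18693, 17063, and 18404 in MDSC libraries, 33476, 38858, 41567, and 30702 in MDSC-NP-Blk libraries, and 47560, 43266, 42500, and 44413 in CITED libraries. Its groups were likewise ordered without overlap. The log2 fold change against MDSC was 1.31 in CITED (SE 0.0617, adjusted p = 7.8e-19) and 1.01 in MDSC-NP-Blk (SE 0.0613, adjusted p = 1.8e-15). The latter lay at the fold change threshold, and it was 0.99 without MDSC replicate 3, 0.98 without MDSC-NP-Blk replicate 2, and 0.94 without MDSC-NP-Blk replicate 3. The decoy receptor gene Il1r2 followed another order. Its normalized counts were 16218, 16867, 15542, and 15642 in MDSC libraries, 27760, 25030, 23514, and 27829 in MDSC-NP-Blk libraries, and 22464, 20802, 21429, and 20819 in CITED libraries, so that MDSC-NP-Blk was highest and CITED lay between. The log2 fold change against MDSC was 0.41 in CITED (SE 0.0499, adjusted p = 1.2e-08) and 0.70 in MDSC-NP-Blk (SE 0.05, adjusted p = 1.3e-13), both below the fold change threshold.

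Tnf had normalized counts of 1161, 1209, 1247, and 1338 in MDSC libraries, 1835, 2379, 2528, and 1619 in MDSC-NP-Blk libraries, and 2335, 2306, 2355, and 2404 in CITED libraries. The MDSC-NP-Blk libraries spread on both sides of the CITED libraries, with an SD of 433 against 41.1. The log2 fold change of Tnf was 0.92 in CITED (SE 0.0870, adjusted p = 4.4e-11) and 0.76 in MDSC-NP-Blk (SE 0.0868, adjusted p = 6.2e-09). The oncostatin M gene Osm had normalized counts of 845, 1040, 862, and 966 in MDSC libraries, 1801, 1950, 1822, and 1641 in MDSC-NP-Blk libraries, and 2019, 1870, 1935, and 2025 in CITED libraries. Both nanoparticle groups were above all MDSC libraries and overlapped each other. Its log2 fold change was 1.08 in CITED (SE 0.0694, adjusted p = 3.1e-15) and 0.96 in MDSC-NP-Blk (SE 0.0693, adjusted p = 1.4e-13). Without MDSC replicate 2, the highest MDSC library, the latter was 1.02.

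Il6, the gene of the cytokine added to all cultures, had normalized counts of 62.1, 37.1, 74.6, and 52.3 in MDSC libraries, 196, 199, 169, and 161 in MDSC-NP-Blk libraries, and 255, 235, 232, and 209 in CITED libraries. The groups did not overlap, although the MDSC libraries had a coefficient of variation of 28.0% at these low counts. The log2 fold change against MDSC was 2.03 in CITED (SE 0.167, adjusted p = 1.6e-12) and 1.68 in MDSC-NP-Blk (SE 0.167, adjusted p = 3.2e-10). Il12a, which encodes the p35 subunit of IL-12, had normalized counts of 80.2, 82.8, 65.4, and 45.3 in MDSC libraries, 187, 155, 153, and 184 in MDSC-NP-Blk libraries, and 271, 267, 265, and 318 in CITED libraries. It showed the widest step between the nanoparticle groups among the 8 members above the floor. Its log2 fold change against MDSC was 2.03 in CITED (SE 0.156, adjusted p = 3.5e-13) and 1.30 in MDSC-NP-Blk (SE 0.159, adjusted p = 2.7e-08). The partner subunit gene Il12b remained near the floor in the same libraries.

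**Figure D2:**
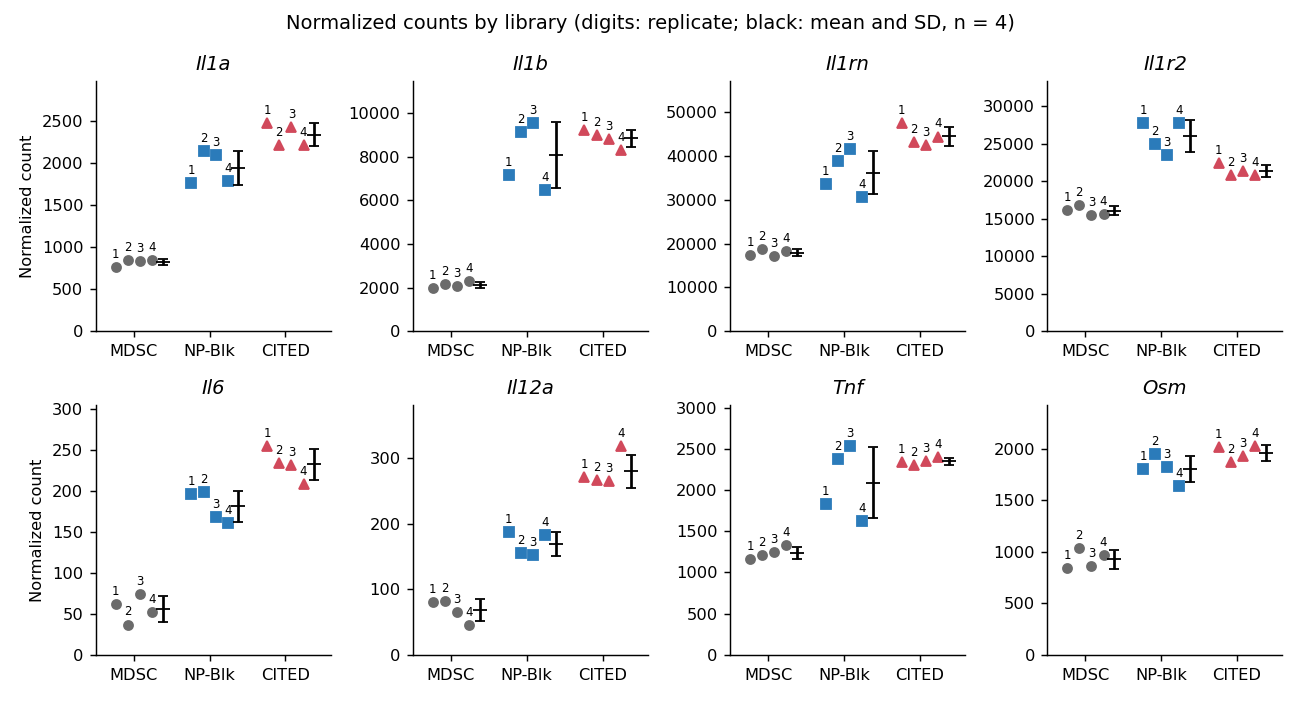
Normalized counts of the 8 members above the floor in each library (y axes from 0), with the replicate number at each point and the mean and SD of the 4 libraries of a group in black. In all panels the MDSC libraries lie lowest, and in MDSC-NP-Blk, replicates 2 and 3 lie above 1 and 4 for Il1a, Il1b, Il1rn, Tnf, and Osm and below them for Il1r2 and Il12a.

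The third comparison, CITED against MDSC-NP-Blk, measured the addition of rapamycin to the nanoparticle. It shares its libraries with both comparisons above. No member was up- or down-regulated at both thresholds (0 of 10 by edgeR and 0 by DESeq2, with 5 of 10 at an unadjusted p below 0.05), and 0.651% of all genes were up-regulated. At an adjusted p below 0.05 alone, 3 members were higher (10.5% of all genes) and 1 was lower (11.4%), and 4 were higher without overlap between groups (10.4%). With 1 lower member of 10, the share of lower members was close to that of all genes, and the median log2 fold change was 0.21 over the members and 0 over all genes. The 3 were Il12a, at 0.73 on the log2 scale (SE 0.145, adjusted p = 2.1e-04), Il1rn, with 0.30 (SE 0.0607, adjusted p = 2.9e-04), and Il1a, with 0.26 (SE 0.0669, adjusted p = 0.0035). Il1r2 was lower in CITED, at −0.28 on the log2 scale (SE 0.0498, adjusted p = 3.6e-05). The antagonists of IL-1 thus moved in opposite directions between the nanoparticle groups.

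For Il1b, Tnf, Osm, and Il6, a difference between CITED and MDSC-NP-Blk was not established. The log2 fold change was 0.13 for Il1b (95% interval −0.03 to 0.28, adjusted p = 0.27), 0.17 for Tnf (−0.01 to 0.34, adjusted p = 0.19), 0.12 for Osm (−0.02 to 0.26, adjusted p = 0.23), and 0.35 for Il6 (0.05 to 0.66, adjusted p = 0.098), all from edgeR. The intervals are not adjusted for multiple testing. The calls for Il1b and Tnf changed with the setting. Without MDSC-NP-Blk replicate 3, the highest library of its group for both, the log2 fold change was 0.22 for Il1b (adjusted p = 0.015; 0.015 to 0.79 over the alternatives fitted with edgeR) and 0.27 for Tnf (adjusted p = 0.008; 0.008 to 0.62 over the same alternatives).

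**Figure D3:**
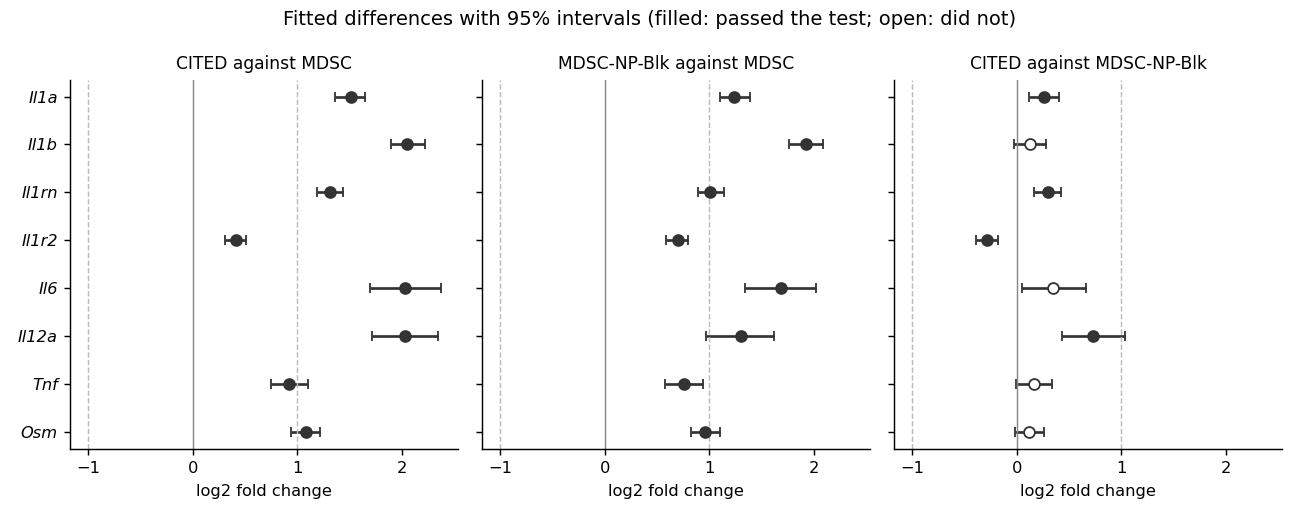
Log2 fold changes of the 8 members above the floor in the 3 comparisons, with 95% intervals; filled points passed the test at an adjusted p below 0.05, and dashed lines mark log2 fold changes of −1 and 1. All points lie above 0 in the comparisons with MDSC, and Il1r2, at −0.28, is the member below 0 in CITED against MDSC-NP-Blk.

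The spread within MDSC-NP-Blk was not the same for all members. Replicates 2 and 3 were above replicates 1 and 4 for Il1b, Il1a, Il1rn, Tnf, and Osm and below them for Il1r2 and Il12a. The coefficient of variation in this group was 20.7% for Tnf and 18.6% for Il1b, compared with 1.75% and 4.50% in CITED. In the same libraries, the rank correlation across 10543 genes between transcript length and expression relative to the gene's mean over all libraries was −0.42, −0.047, 0.092, and −0.24 in replicates 1 to 4. It was 0.22 to 0.35 in MDSC and −0.34 to −0.19 in CITED. These values are given as a description of libraries that also differ in depth, and their part in the spread was not tested. After a length correction, all 8 members were still higher than MDSC at an adjusted p below 0.05 in both nanoparticle groups. The correction lowered the log2 fold change of Il1rn in MDSC-NP-Blk to 0.95 and that of Osm in CITED to 0.98, both under the threshold of 1. It also lowered the log2 fold change of Il1r2 in CITED from 0.41 to 0.21, and total counts in place of TMM lowered it to 0.14 (edgeR, adjusted p = 0.014). With total counts, the log2 fold change in MDSC-NP-Blk was 0.43 for Il1r2 and 0.50 for Tnf.

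To set the antagonists against the ligands, ratios of CPM per kilobase were formed within each library, which removes the library scaling. No test was run on these ratios. The ratio of Il1rn to Il1b was 4.79, 4.72, 4.55, and 4.38 in MDSC libraries, 2.56, 2.33, 2.38, and 2.61 in MDSC-NP-Blk libraries, and 2.82, 2.63, 2.65, and 2.93 in CITED libraries. All nanoparticle libraries were below all MDSC libraries, and Il1b was higher by a larger factor than its antagonist. The ratio of Il1r2 to Il1b was 7.22 ± 0.539 in MDSC libraries, 3.20 ± 0.847 in MDSC-NP-Blk libraries, and 2.31 ± 0.0785 in CITED libraries (SD, n = 4), and MDSC-NP-Blk ranged from 2.35 to 4.12. Against Il1a the ratio of Il1rn moved less, with 30.1 ± 1.26 in MDSC libraries, 25.7 ± 1.57 in MDSC-NP-Blk libraries, and 26.4 ± 1.53 in CITED libraries, and the lowest MDSC library, at 28.45, was above the highest with nanoparticles, at 27.75. Il1a relative to Il1b was 0.153 ± 0.00597 in MDSC libraries, 0.0965 ± 0.00958 in MDSC-NP-Blk libraries, and 0.105 ± 0.00504 in CITED libraries.

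To set the antagonists against each other, the ratio of Il1rn to Il1r2 was formed in the same way. It was 0.618, 0.636, 0.630, and 0.675 in MDSC and 1.21, 1.19, 1.14, and 1.22 in CITED. In MDSC-NP-Blk it was 0.692, 0.890, 1.01, and 0.633, with replicate 4 within the range of MDSC, replicate 1 just above it, and replicates 2 and 3 between MDSC and CITED. The size of each ratio depends on the transcript lengths used, whereas the order of the groups does not.

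**Figure D4:**
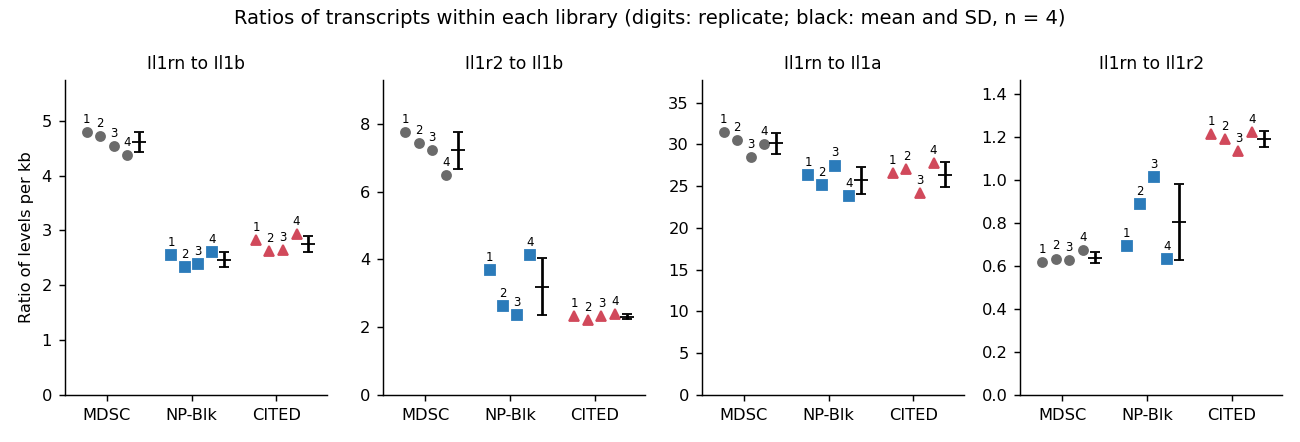
Ratios of levels per kilobase within each library (y axes from 0), with the replicate number at each point and the mean and SD of 4 libraries in black. The ratios of Il1rn and Il1r2 to Il1b are lower in all nanoparticle libraries than in MDSC, and Il1rn to Il1r2 exceeds 1 in all CITED libraries.

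The receptors and other members of these pathways were counted from lists in the same fits. For comparison, the share of all tested genes that passed as higher than MDSC was 22.2% for CITED and 19.9% for MDSC-NP-Blk. For lower genes this share was 22.2% and 18.6%, with CITED first. Some list counts for CITED lay near these shares, such as the lower genes of the IL-1 family and of the RNA-binding proteins. The higher NF-kB genes lay above them in both groups. These shares include symbols with few counts, so that they are not shares of genes at similar levels. In the list of other IL-1 family ligands, receptors, and signaling genes, 10 of 21 tested genes were higher and 6 lower in CITED than in MDSC, and 9 and 1 in MDSC-NP-Blk, with median log2 fold changes of 0.25 and 0.16. Il36g, which encodes the IL-1 family ligand IL-36γ, was up-regulated in CITED (log2 fold change 1.27, adjusted p = 1.8e-18), as was Il18bp, the gene of the soluble antagonist of IL-18 (1.10, adjusted p = 3.7e-09), and both passed the test in MDSC-NP-Blk with 0.92 and 0.64. Il1r1, the signaling receptor gene of IL-1, was low, with 50.6 ± 8.53 normalized counts in MDSC libraries, 49.9 in MDSC-NP-Blk libraries, and 60.2 in CITED libraries, and did not pass the test in either comparison with MDSC (adjusted p = 1.0 and 0.45). Its coreceptor gene Il1rap was at 1827, 2154, and 2694.

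In the TNF list, 8 of 15 genes rose and 0 fell in CITED against MDSC, as did 11 and 1 in MDSC-NP-Blk, with medians of 0.40 and 0.50. Ltb, which encodes lymphotoxin β, was the gene up-regulated in both, with log2 fold changes of 1.4 and 1.33. The receptor genes Tnfrsf1a and Tnfrsf1b passed the test as higher in both, with log2 fold changes of 0.40 to 0.59. Among the receptors and proximal signaling genes of the IL-6 and IL-10 families, 10 of 16 were higher and 1 lower in each nanoparticle group, and the medians were 0.50 and 0.23, with CITED first. Socs1, a feedback inhibitor of JAK kinases, was up-regulated with log2 fold changes of 1.38 and 1.09, and Lif, which encodes a cytokine of the IL-6 family, with 1.22 and 1.09. The IL-10 receptor genes Il10ra and Il10rb were higher in both groups (0.80 and 0.93 in CITED, 0.70 and 0.62 in MDSC-NP-Blk), although their ligand gene was at the floor, and Osmr, the receptor gene of oncostatin M, had 0 counts in all libraries.

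In the IL-12 family list, 3 of 7 genes rose and 1 fell in CITED against MDSC, as did 4 and 0 in MDSC-NP-Blk, with medians of 0.25 and 0.42. Il27, which encodes the p28 subunit of IL-27, was up-regulated in CITED (1.29, adjusted p = 3e-08), and its partner Ebi3 passed the test in both groups (0.74 and 0.97). Il23a, the gene of the IL-23 subunit that pairs with the product of Il12b, had mean normalized counts of 7.32 to 8.78 in the 3 groups. Il12a and Ebi3, whose products can pair as IL-35, were thus both higher with nanoparticles than in MDSC at the RNA level, whereas Il12b and Il23a stayed low. Between the nanoparticle groups, Il12a was higher in CITED (0.73), whereas Ebi3 was lower in CITED (log2 fold change −0.23, adjusted p = 0.0049).

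In the list of NF-kB genes and inhibitors, 11 of 14 genes rose and 0 fell in CITED against MDSC, as did 10 and 1 in MDSC-NP-Blk, with medians of 0.85 and 0.63. Rela, Bcl3, Nfkb2, and Relb were up-regulated in CITED with log2 fold changes of 1.10, 1.43, 1.11, and 1.23, and Bcl3 and Relb in MDSC-NP-Blk with 1.14 and 1.12. Rela, Relb, and Nfkb2 encode NF-kB subunits, and Bcl3 a nuclear cofactor of them. The inhibitor gene Nfkbib was likewise up-regulated in CITED with 1.14 and was at 0.72 in MDSC-NP-Blk, and Nfkbia and Nfkbie, which also encode inhibitors that hold NF-kB in the cytoplasm, passed the test as higher with 0.97 each in CITED and 0.95 and 0.84 in MDSC-NP-Blk. In the list of RNA-binding proteins that act on cytokine mRNAs, 7 of 15 were higher and 4 lower in both groups, with medians of 0.02 and 0.09. Zfp36, whose product promotes decay of mRNAs with the AU-rich pentamers shown above, was up-regulated with 1.49 and 1.36, as was its relative Zfp36l1 with 1.54 and 1.41. Tia1, which encodes a translational silencer binding such sequences, was lower with −1.19 and −1.16. With total counts in place of TMM, the members kept 8 higher and 0 lower in both groups, but the list counts moved. In CITED they were then 10 higher and 2 lower for NF-kB, 5 and 9 for the RNA-binding proteins, 7 and 8 for the IL-1 family, 7 and 3 for TNF, 8 and 5 for the IL-6 and IL-10 families, and 3 and 1 for the IL-12 family, against 12.4% and 35.8% of all genes. In MDSC-NP-Blk they were 8 and 2, 4 and 8, 5 and 5, 8 and 1, 5 and 4, and 2 and 0 in the same order, against 9.4% and 34.5% of all genes. These counts use the adjusted p alone. Total counts shifted the median log2 fold change of all genes by −0.27 in CITED and by −0.26 in MDSC-NP-Blk against MDSC. List genes up-regulated just above 1, such as Rela and Relb, lie within this shift of the threshold.

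Between CITED and MDSC-NP-Blk, these lists held 6 higher and 3 lower of 21 genes for the IL-1 family, 1 and 3 of 15 for TNF, 5 and 0 of 16 for the IL-6 and IL-10 families, 2 and 2 of 7 for the IL-12 family, 6 and 0 of 14 for NF-kB, and 2 and 0 of 15 for the RNA-binding proteins, against 10.5% of all genes higher and 11.4% lower. The counts of higher genes in the TNF and RNA-binding protein lists were near the share of all genes. None of their genes was up- or down-regulated at both thresholds. Il36g, with a log2 fold change of 0.35 (adjusted p = 3.2e-05), and Il27, with 0.62 (adjusted p = 0.0033), were higher in CITED, as were Il1rn and Il12a above. Among the lower genes were Ebi3, as given above, and the receptor genes Il18rap (−0.58, adjusted p = 3.2e-10), Il12rb2 (−0.71, adjusted p = 1e-07), and Il18r1 (−0.71, adjusted p = 4e-06).

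The genes most like each member over the 12 libraries were found by the root mean square difference of log2 CPM after centring each gene, among 10555 other genes with a mean normalized count above 50. For Il1b, the closest were Egr2 (0.189), Spon1 (0.200), and Cxcl14 (0.204), differences larger than for the other members. For Il1a they were Marcks (0.0962), Zfp36 (0.0981), and the chemokine gene Ccl3 (0.0997). For Il1rn they were Il36g (0.0697), Acod1 (0.0816), which encodes the enzyme that makes itaconate, and Tmem243 (0.0821). For Tnf they were Trex1 (0.0794), Ets2 (0.0932), and Mmp25 (0.0977), and for Osm Tarm1 (0.0647), Csf1r (0.0739), and Slc2a6 (0.0763). For Il1r2 they were R3hdm4 (0.0532), Lonp2 (0.0538), and the ribosomal protein gene Rps18 (0.0558), all highest in MDSC-NP-Blk. The libraries belong to the groups compared and differ in depth, so that likeness over them includes the differences between groups.

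Markers of other cells were present and also differed between groups, and their counts are to be read against the 22.2% of all genes that were higher and the 22.2% that were lower in CITED than in MDSC, and the 19.9% and 18.6% in MDSC-NP-Blk. In these bulk samples, fewer cells of a type and less RNA per cell cannot be told apart. Of 7 macrophage markers, 5 were lower in both nanoparticle groups, and 2 were higher in CITED and 1 in MDSC-NP-Blk. The summed macrophage level was 14218 to 14935 in MDSC libraries, 11520 to 13289 in MDSC-NP-Blk libraries, and 16788 to 18567 in CITED libraries, which was carried by Cd68, at 12711 in CITED and 6112 in MDSC, whereas C1qa had 560 normalized counts in MDSC, 177 with blank and 33.9 with loaded nanoparticles, and Mrc1 had 1809, 379, and 260. Of 8 mast cell and basophil markers, 6 were higher in MDSC-NP-Blk and 6 lower in CITED, with sums of 15360 to 16414 in MDSC libraries, 18597 to 21342 in MDSC-NP-Blk libraries, and 10732 to 10962 in CITED libraries. Of 9 dendritic cell markers, 2 were higher and 3 lower in CITED and 2 each in MDSC-NP-Blk, with sums of 12113 to 12915, 8724 to 9191, and 10470 to 11428. These sums were mostly Itgax, at 11032, 7278, and 9467. Clec9a, 1 of the 2 higher in CITED, was up-regulated there, at 118 against 48.4 in MDSC (log2 fold change 1.29, adjusted p = 5.9e-06 from edgeR). Of 6 B cell markers, 5 were lower and 1 was higher in CITED, and 1 was lower in MDSC-NP-Blk, with sums of 598 to 726, 522 to 603, and 591 to 726. The B cell sum in CITED was mostly Cd22, at 555 in CITED and 343 in MDSC, whereas Cd79b had 38.9 and 151.

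T cell markers summed to 53.2 to 87.6 and erythroid markers to 68.8 to 122 normalized counts in all libraries, with 0 of 8 and 0 of 6 passing the test in CITED (edgeR; 0 and 1 at an unadjusted p below 0.05) and 0 and 1 in MDSC-NP-Blk. Of the NK cell markers, Ncr1 had 0 counts in all libraries and 1 of 5 tested, Nkg7, was lower in both groups, with sums of 475 to 582 in MDSC libraries, 392 to 443 in MDSC-NP-Blk libraries, and 97.7 to 133 in CITED libraries. These sums were mostly Nkg7, at 501, 406, and 103, and the other tested NK cell markers had at most 14 raw counts in a library. The stromal and endothelial sums were 1616 to 1839, 1517 to 1724, and 1066 to 1143, mostly Pecam1, the 1 of 5 tested markers that was lower in CITED, with Cxcl12 at 0 counts. Of 9 MDSC markers, 8 were higher in MDSC-NP-Blk, and 4 were higher and 2 lower in CITED, with sums of 619124 to 705137, 847507 to 899125, and 657985 to 753432. The MDSC marker sums were mostly S100a8 and S100a9, at 263622 and 282835 in MDSC. The part of these shifts in the differences of the 10 members was not tested.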

How the data were processed

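RNA of 12 libraries was enriched for poly(A) and sequenced from both ends. The authors quantified transcripts with Salmon 1.4.0 against GENCODE transcripts of GRCm39, summed them per gene with tximport in R 4.3.2, and deposited whole-number counts per gene symbol, neither normalized nor filtered. Versions are from the submitters' processing notes. The entry with an empty symbol held 0 counts and was left out. Groups and replicate numbers were taken from the sample titles.

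Tests used edgeR 4.0.16 in R 4.3.3 on symbols whose counts summed to 2 or more (TMM factors, glmQLFit, and glmQLFTest, with the group as the only term and all 12 libraries in the fit). P-values were adjusted by Benjamini and Hochberg over all genes of a comparison, and a gene was called up- or down-regulated where the adjusted p was below 0.05 and the log2 fold change reached 1 in either direction. Standard errors were derived from the log2 fold change and the F statistic. The depth of 20604809 to 37855478 counts sets the precision of the low members. Same-numbered libraries of different groups were compared after the group means were removed, and the number was not used as a block.

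Alternatives were DESeq2 1.42.0, other size factors, total counts, other filters, fits of only the 8 libraries compared, a replicate block, and leaving out each library. A length correction (loess, span 0.5, on canonical transcript length) was added after seeing the data. Positions, promoters, and 3′ UTRs were read from GENCODE release M39 and GRCm39, and the release used by the authors is not given in the sources used here. Less than 1% of the 31-base words of any member occur in transcripts of other genes.

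The members and lists were chosen with earlier results of these data known. From each list other than the members, up to 4 called genes with the lowest p and a mean normalized count above 50 were to be named in each comparison. For 6 members, the 3 genes of most similar pattern were named. Receptor, partner, and marker genes outside this rule were named after their values were seen. The fit was also run on simulated data, and no result above rests on that run. Figures were drawn with matplotlib 3.10.9 in Python 3.11.15.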

Additional observations from a re-analysis of the deposited data

Results flagged for a closer look

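In groups of 4 libraries, the highest or lowest value was compared with its nearest neighbour relative to the range of the group (Dixon's criterion at 95%), which chance exceeds in about 1 of 20 groups. Among the members, 3 values exceeded it. Il12a in CITED replicate 4, at 318 normalized counts, lay above the other 3 CITED libraries, which were at 265 to 271. Il10 in MDSC-NP-Blk replicate 2, at 4.14 normalized counts from 6 raw counts, was the only library in which Il10 was detected. Il12b in MDSC-NP-Blk replicate 1, at 7.65 normalized counts from 6 raw counts, was the only library of its group with Il12b counts. The Il10 and Il12b values rest on a few counts. With the other libraries of the group at 0, any count would exceed the criterion, so that the rate of 1 in 20 does not apply to them.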

How the results depend on the processing

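Over 7 alternative settings set at the start and a length correction added after seeing the data, 189 of 192 fold changes of the 8 members above the floor kept their direction and their side of an adjusted p of 0.05, 3 passed it anew, and 0 reversed. Over the fits that each left out 1 library, 286 of 288 of the same members did so, 2 passed it anew (Il1b and Tnf, as given above), and 0 reversed. The members up-regulated in CITED against MDSC numbered 6 in every fit that left out a library and 5 with total counts alone or the length correction, which put Osm at 0.81 and 0.98. In MDSC-NP-Blk against MDSC, 5 were up-regulated, 4 to 6 with each library left out, and 3 with total counts alone, when Il1a fell to 0.98 and Il1rn to 0.75, as that scaling lowers the median gene by 0.26. In the same comparison, 0 to 1 were down-regulated or passed as lower with each library left out, and the 1 was Il12b without MDSC-NP-Blk replicate 1. In CITED against MDSC-NP-Blk, 0 to 1 were up-regulated (again Il12b) and 3 to 5 passed as higher with each library left out. Replicate numbers did not mark pairs, since deviations of same-numbered libraries correlated at −0.06 to 0.14 over 12 pairs and 10556 genes, with 1 pair above 0.1. With the replicate block, 5 members passed as higher in CITED against MDSC-NP-Blk, the additions being Il1b (0.14, adjusted p = 0.028) and Tnf (0.18, adjusted p = 0.025), and Il6 passed (adjusted p = 0.049) when the 8 libraries of that comparison were fitted alone. DESeq2 gave 6, 5, and 0 members called in the 3 comparisons, with no adjusted p for 1 member. Depth limits Il10 and Il12b, and of these only Il12b passed, in 2 comparisons without MDSC-NP-Blk replicate 1.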
